A study of Mus musculus with 14 samples.

Results

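The 10 genes described here carry glucose into the cell and break it down to lactate: the transporters Slc2a1 and Slc2a3, the hexokinases Hk1 and Hk2, the phosphofructokinase subunits Pfkl and Pfkp, and Aldoa, Pgk1, Pkm and Ldha. They are 10 of the 19937 gene symbols measured, and were chosen by name. Each gene was represented by the probe set, among those annotated with 1 symbol, that had the highest mean over all 14 arrays. All 10 were found.

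Gene expression was measured on 14 Affymetrix mouse arrays of T cells sorted by flow cytometry from C57BL/6 mice. The 4 groups were thymus CD4+CD8+ cells of wild-type (WT) mice (n = 3, all 7 months old), thymus CD4+CD8+ cells of ENK KO mice (n = 2, aged 2 and 7 months), spleen CD8+ cells of WT mice (n = 4, all 7 months) and spleen CD8+ cells of ENK KO mice (n = 5, aged 2, 2, 6, 7 and 9 months). The sample labels do not spell out ENK, the series title names Engrailed-2 in chronic myelogenous leukemia, and the labels used here give no other allele, no agent and no deleted region. The 2-month-old animals were all ENK KO, so age and genotype are partly confounded. Their arrays were also the only ENK KO arrays labelled female, so age and labelled sex are tied within ENK KO. Of the WT arrays, thymus replicate 7 and spleen replicate 22 were labelled female. Since nothing in the labels ties each array to its own animal, the p-values below describe the spread of these arrays, which may be partly technical.

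Glycolysis converts glucose to pyruvate in the cytosol. Facilitative transporters admit glucose, hexokinases trap it as glucose 6-phosphate, phosphofructokinase commits it to breakdown, and lactate dehydrogenase regenerates NAD+ by reducing pyruvate to lactate. T cells are known to raise glucose uptake and glycolysis when they are activated and divide, and resting T cells rely more on mitochondrial respiration. Several of these genes are known targets of the transcription factors HIF-1 and MYC.

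The letters ACGTG form the core of the HIF-1 site, and CACGTG is the E-box that MYC binds. The RefSeq table used here (assembly GRCm38.p6) held 14 promoters for 9 of the 10 genes, each running from 250 bases before to 50 after a listed start, and none for Slc2a3. ACGTG on either strand occurred in at least 1 listed promoter of 7 of these 9 genes, against 19.6% of all 32851 listed promoters of the same length. Some of the 9 genes have several listed promoters, so the share of genes and the share of promoters are not on the same footing: 8 of the 14 promoters held it, 2 of them overlapping promoters of Aldoa that share 1 site. CACGTG, which contains ACGTG, occurred in 1 of the 14 against 7.15% of all promoters, and GGGCGG, the core of the Sp1 site, in 9 of the 14 against 35.7%. A match is a description of letters, and no binding was measured. The promoters of 4 genes are shown because all hold the motif while, as described below, these genes differed between the tissues by very different amounts. Capitals mark ACGTG, its reverse complement CACGT, and CACGTG.
Slc2a1, chr4:119108495-119108794, plus strand: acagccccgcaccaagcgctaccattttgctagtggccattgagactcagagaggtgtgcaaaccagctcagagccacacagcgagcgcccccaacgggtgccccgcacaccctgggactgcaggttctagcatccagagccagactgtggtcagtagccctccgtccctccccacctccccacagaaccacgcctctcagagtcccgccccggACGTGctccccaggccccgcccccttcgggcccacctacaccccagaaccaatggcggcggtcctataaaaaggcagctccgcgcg
Aldoa, second listed start, chr7:126799205-126799504, minus strand: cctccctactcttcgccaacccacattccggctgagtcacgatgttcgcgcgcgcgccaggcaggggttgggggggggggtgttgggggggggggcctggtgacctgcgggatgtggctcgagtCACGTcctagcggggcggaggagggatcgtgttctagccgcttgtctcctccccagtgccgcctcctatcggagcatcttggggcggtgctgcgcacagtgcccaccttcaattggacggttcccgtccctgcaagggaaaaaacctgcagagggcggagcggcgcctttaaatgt
Pgk1, chrX:106186850-106187149, plus strand: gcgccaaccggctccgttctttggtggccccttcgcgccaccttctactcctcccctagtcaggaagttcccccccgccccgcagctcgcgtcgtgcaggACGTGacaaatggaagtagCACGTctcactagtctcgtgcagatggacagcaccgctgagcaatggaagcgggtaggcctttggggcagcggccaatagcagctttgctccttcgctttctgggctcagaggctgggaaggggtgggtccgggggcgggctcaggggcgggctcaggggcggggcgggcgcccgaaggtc
Ldha, first listed start, chr7:46845554-46845853, plus strand: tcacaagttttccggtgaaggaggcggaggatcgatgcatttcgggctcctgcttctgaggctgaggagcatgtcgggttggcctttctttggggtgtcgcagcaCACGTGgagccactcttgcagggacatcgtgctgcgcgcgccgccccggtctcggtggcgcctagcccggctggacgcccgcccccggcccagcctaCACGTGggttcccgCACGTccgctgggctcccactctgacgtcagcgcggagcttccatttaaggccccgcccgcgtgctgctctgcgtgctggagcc
Slc2a1 and Aldoa show 1 such site each, Pgk1 shows 2 and Ldha 3, of which 2 are CACGTG.

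All values below are log2 expression values per probe set that the authors made with RMA, so a difference of 1 is a doubling of signal. Such values do not compare the level of 1 gene with that of another. Array medians lay between 7.14 and 7.25. Correlations between arrays lay between 0.994 and 0.996 within the thymus and between 0.987 and 0.995 within the spleen. Genes entered the tests (13641 of them) when 2 or more arrays exceeded 6.76, the level below which 40% of the table's values fall. Of the 10 genes, 9 exceeded it on all 14 arrays. Hk2 exceeded it on 8 arrays, all from the spleen, so it was tested only through the group where it was higher.

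The labelled cell types were checked against their markers. Thymus arrays were high in Cd4 (12.94 to 13.13), Cd8a (12.89 to 13.23) and the recombinase gene Rag1 (12.83 to 13.16). WT spleen arrays were high in Cd8a (12.06 to 12.52) and low in Cd4 (6.62 to 6.92) and Rag1 (6.23 to 6.31). Replicate 28 of the spleen ENK KO group went against its CD8+ label. It had Cd4 at 12.20 where the other 4 arrays of its group had 6.61 to 6.81, Cd8a at 6.78 where they had 12.36 to 12.53, and Foxp3, the regulatory T cell factor, at 9.87 where they had 7.34 to 7.44. Tests that use it were repeated without it, and values without it are given beside the ENK KO tissue differences and the spleen genotype differences. Since all groups share 1 estimate of the spread, replicate 28 also enters the standard errors and p-values of the other comparisons. The WT tissue difference of Pfkp, for example, had a standard error of 0.10 with it and 0.06 without it. Spleen WT replicate 22, labelled female, had Xist at 5.90 and the Y-linked Kdm5d at 9.85, within the range of the 9 arrays labelled male (5.52 to 6.38 and 9.65 to 10.44) and outside that of the other 4 labelled female (12.36 to 13.37 and 5.82 to 6.41).

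The chosen probe sets of Hk1 and Pkm are in doubt. The Hk1 probe set with the highest mean is annotated with 1 accession and no RefSeq mRNA. That same accession occurs in all 15 probe sets annotated to both Rpl17, a ribosomal protein gene, and Hk1, and its values correlated with those of the 15 sets at a median r of 0.989 over 14 arrays (range −0.855 to 0.997), against 0.852 with the second Hk1 set. The points of these correlations share the split between the tissues. The chosen Hk1 set also correlated at 0.997 with Slc7a5 and 0.996 with Entpd6, so such an r does not identify a transcript. Which transcript the set reads was not tested. The second Hk1 set carries 2 RefSeq mRNAs. The chosen Pkm set likewise carries 2 accessions and no RefSeq mRNA, while the second Pkm set carries 2 RefSeq mRNAs. Both sets are given for the levels and comparisons of these genes, while correlations use the chosen sets, and the sets with RefSeq mRNAs are called RefSeq-annotated. Many deposited values are also exactly equal between arrays: 65.7% of tested genes had at least 2 equal thymus values and 50.6% at least 2 equal spleen values, including 4 of the 10 genes in each tissue, so an SD of 0 understates the error.

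In WT cells, 8 of the 9 genes above the filter level on every array were higher in spleen CD8+ than in thymus CD4+CD8+ cells and none was lower (limma, adjusted p under 0.05). Hk2, the gene left out of this count, could enter the tests only by being higher in the spleen. Across all genes tested, 30.5% were called higher and 38.2% lower. With the RefSeq-annotated sets of Hk1 and Pkm the count was 7 of 9. With the chosen sets and without replicate 28 in the fit it was again 8 of 9. The median log2 difference of the 9 genes was 0.718 (0.663 with those sets), against −0.045 over all genes tested. Among the 9 genes the largest increases were in Aldoa (2.92-fold) and Slc2a3 (2.88-fold). The log2 differences were smaller for Ldha (0.24), Pkm (0.19, or −0.01 with its RefSeq-annotated set) and Pgk1 (0.13, not called). The WT groups did not overlap for 8 of the 9 genes (6 with those sets), with spleen above thymus, against 32.6% of all genes tested. Because these are bulk samples, fewer cells expressing a gene and less RNA per cell cannot be told apart.

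In ENK KO cells, 6 of the same 9 genes were higher in the spleen and none was lower, against 27.4% of all genes called higher and 37.1% called lower. The count was also 6 with the RefSeq-annotated sets, and 6 without replicate 28, when 27.9% of all genes were called higher and 37.3% lower. The 3 genes not called were Pgk1, Pkm and Ldha. The median log2 difference was 0.774 (0.568 with the RefSeq-annotated sets, 0.777 without replicate 28), against −0.059 over all genes. Without replicate 28 the ENK KO differences were 0.93 for Slc2a1, 1.59 for Slc2a3, 1.13 for the chosen Hk1 set, 0.78 for Pfkl, 1.51 for Aldoa, 0.10 for Pkm and 0.16 for Ldha. The groups did not overlap for 8 of the 9 genes (7 with the RefSeq-annotated sets), with spleen above thymus, against 29.9% of all genes.

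**Figure D1:**
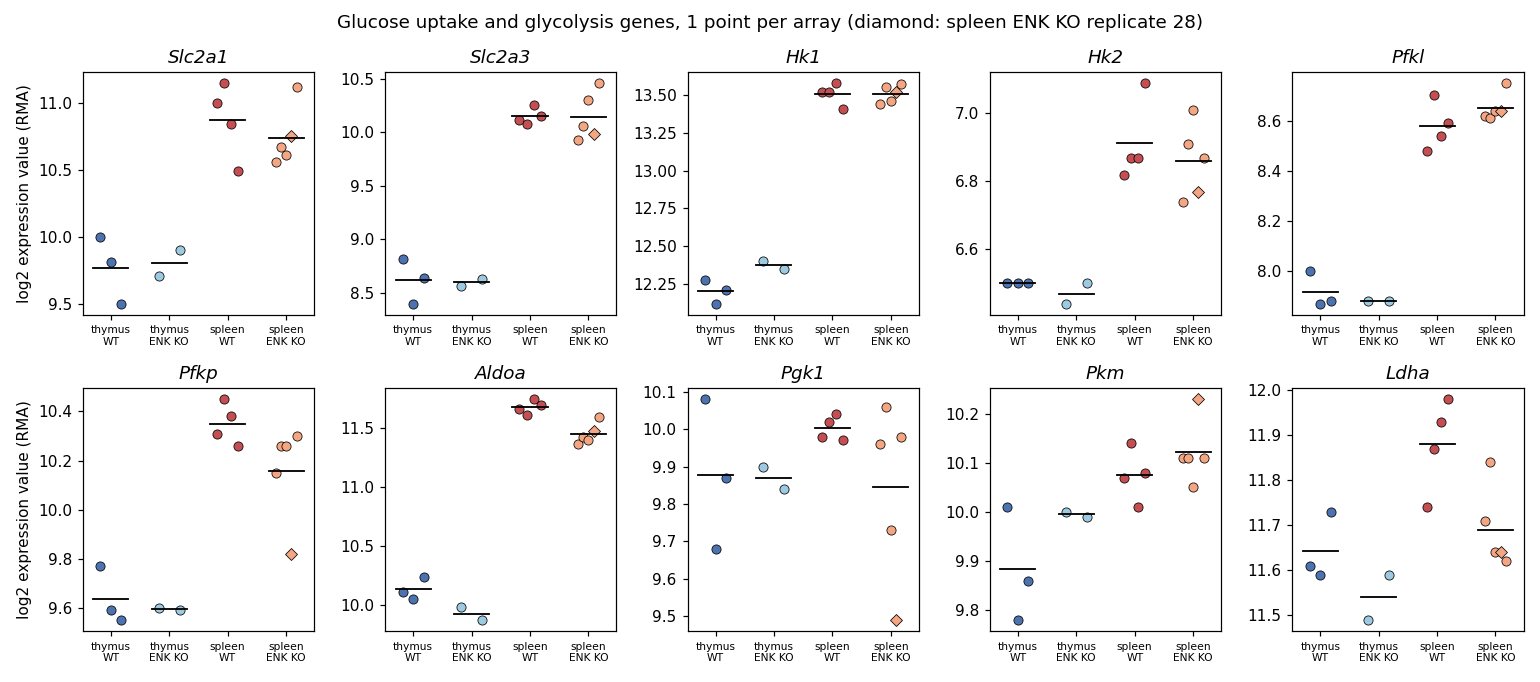
Log2 expression values (RMA) of the 10 genes, 1 point per array, in thymus WT (n = 3), thymus ENK KO (n = 2), spleen WT (n = 4) and spleen ENK KO (n = 5), with a line at each group mean and a diamond for spleen ENK KO replicate 28. Each panel has its own vertical axis, which does not start at 0. Aldoa and Slc2a3 separate the tissues by about 1.5 log2 units, while the Pgk1 values of the 2 tissues overlap.

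The glucose transporters were the first step. Slc2a1 encodes GLUT1, the widely expressed transporter that T cells raise on activation. Its log2 values were 10, 9.81 and 9.50 in thymus WT, 9.71 and 9.90 in thymus ENK KO, 11, 11.15, 10.84 and 10.49 in spleen WT, and 10.56, 10.67, 10.61, 10.75 and 11.12 in spleen ENK KO. Every spleen array was above every thymus array, and the genotypes overlapped within each tissue. The WT tissue difference was 1.10 ± 0.17 (SE), a 2.14-fold increase (adjusted p = 6.77e-05), and the ENK KO difference was 0.93 ± 0.18 (adjusted p = 0.000638).

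Slc2a3 encodes GLUT3, a high-affinity transporter best known in neurons and also used by lymphocytes. Its log2 values were 8.82, 8.40 and 8.64 in thymus WT, 8.57 and 8.63 in thymus ENK KO, 10.11, 10.08, 10.25 and 10.15 in spleen WT, and 9.93, 10.06, 10.30, 9.98 and 10.46 in spleen ENK KO. The lowest spleen array stood more than 1 log2 unit above the highest thymus array. The tissue difference was 1.53 ± 0.12 in WT cells (adjusted p = 1.90e-07) and 1.55 ± 0.14, or 2.93-fold, in ENK KO cells (adjusted p = 5.00e-07).

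The hexokinases phosphorylate glucose on entry. Hk1 is the widely expressed form and binds mitochondria. Its chosen probe set lay between 12.12 and 12.40 on the 5 thymus arrays and between 13.41 and 13.58 on the 9 spleen arrays, a WT difference of 1.31 ± 0.05 (adjusted p = 1.43e-10). The RefSeq-annotated Hk1 set gave 9.79, 9.48 and 9.55 in thymus WT, 9.55 and 9.55 in thymus ENK KO, 9.77, 9.91, 9.97 and 10.07 in spleen WT, and 9.90, 9.85, 9.92, 9.82 and 9.90 in spleen ENK KO. Here the WT groups overlapped, and the difference was 0.33 ± 0.08, or 1.25-fold (adjusted p = 0.00207). In ENK KO cells the 2 sets gave 1.14 ± 0.05 and 0.33 ± 0.08 (adjusted p = 1.55e-09 and 0.00360). Without replicate 28 the RefSeq-annotated set gave 0.35 ± 0.09 (adjusted p = 0.00402). Both sets were called higher in the spleen but by different amounts.

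Hk2 is the inducible hexokinase of activated and dividing cells. It was close to background: 6.44 to 6.50 on the thymus arrays, 6.82 to 7.09 in spleen WT and 6.74 to 7.01 in spleen ENK KO. All 5 thymus arrays lay under the filter level and 4 of them shared 1 value, so the thymus level of Hk2 is not resolved here, and no tissue difference of Hk2 is given as a measured change.

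**Figure D2:**
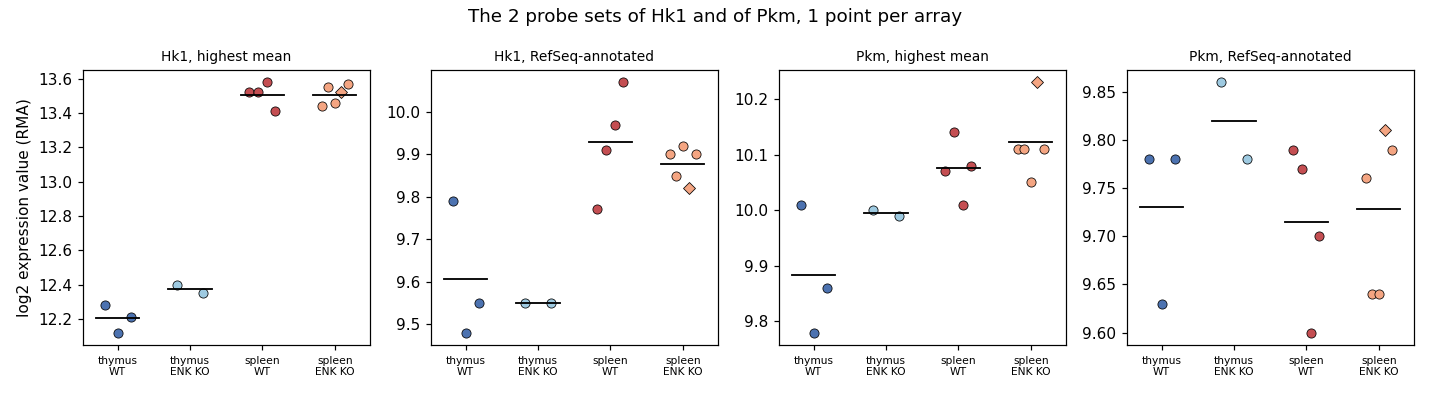
Log2 expression values (RMA) of the 2 probe sets of Hk1 and of Pkm, 1 point per array by group, with a line at each group mean and a diamond for spleen ENK KO replicate 28. The axes differ and do not start at 0. The chosen Hk1 set separates the tissues by more than 1 log2 unit and the RefSeq-annotated set by 0.33 in both genotypes.

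Phosphofructokinase makes the committed step, and its subunits Pfkl (liver form) and Pfkp (platelet form) both rose in the spleen. Pfkl lay between 7.87 and 8.0 in thymus WT, at 7.88 on both thymus ENK KO arrays, between 8.48 and 8.70 in spleen WT and between 8.61 and 8.75 in spleen ENK KO. Its tissue difference was 0.66 ± 0.06 in WT cells (adjusted p = 2.68e-07) and 0.77 ± 0.06 in ENK KO cells (adjusted p = 1.82e-07). Pfkp lay between 9.55 and 9.77 in the thymus and between 10.26 and 10.45 in spleen WT. In spleen ENK KO it was 10.15 to 10.30 on 4 arrays and 9.82 on replicate 28. The Pfkp difference was 0.72 ± 0.10 in WT cells (adjusted p = 3.70e-05) and 0.57 ± 0.11 in ENK KO cells (adjusted p = 0.000637), or 0.65 ± 0.07 without replicate 28.

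Aldoa, the aldolase that splits fructose 1,6-bisphosphate, gave 10.11, 10.05 and 10.23 in thymus WT, 9.98 and 9.87 in thymus ENK KO, 11.66, 11.61, 11.74 and 11.69 in spleen WT, and 11.36, 11.42, 11.39, 11.47 and 11.59 in spleen ENK KO. The 4 groups did not overlap with one another. The tissue difference was 1.55 ± 0.06 in WT cells (adjusted p = 2.69e-10) and 1.52 ± 0.07, or 2.87-fold, in ENK KO cells (adjusted p = 9.99e-10).

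Pgk1 encodes phosphoglycerate kinase, the first ATP-yielding enzyme of the pathway. Its log2 values were 10.08, 9.68 and 9.87 in thymus WT, 9.90 and 9.84 in thymus ENK KO, 9.98, 10.02, 10.04 and 9.97 in spleen WT, and 9.96, 10.06, 9.73, 9.49 and 9.98 in spleen ENK KO, where 9.49 is replicate 28. The tissues overlapped. The tissue difference was 0.13 ± 0.12 in WT cells (adjusted p = 0.375) and −0.03 ± 0.13 in ENK KO cells (adjusted p = 0.880), or 0.06 ± 0.10 without replicate 28.

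Pkm encodes pyruvate kinase, the second ATP-yielding enzyme. Its chosen set lay between 9.78 and 10.01 in the thymus and between 10.01 and 10.23 in the spleen, with differences of 0.19 ± 0.06 in WT (adjusted p = 0.0100) and 0.13 ± 0.06 in ENK KO cells (adjusted p = 0.0936). The RefSeq-annotated set lay between 9.63 and 9.86 in the thymus and between 9.60 and 9.81 in the spleen. Its differences were −0.01 ± 0.06 (adjusted p = 0.893) and −0.09 ± 0.07 (adjusted p = 0.264; −0.11 ± 0.07 without replicate 28), so the call for Pkm rested on the choice of probe set.

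Ldha encodes the lactate dehydrogenase subunit that favours the making of lactate. Its log2 values were 11.61, 11.59 and 11.73 in thymus WT, 11.49 and 11.59 in thymus ENK KO, 11.74, 11.87, 11.93 and 11.98 in spleen WT, and 11.71, 11.84, 11.64, 11.64 and 11.62 in spleen ENK KO. Spleen WT lay just above thymus WT, by 0.24 ± 0.07 or 1.18-fold (adjusted p = 0.00639). The ENK KO difference was 0.15 ± 0.07 (adjusted p = 0.0946).

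**Figure D3:**
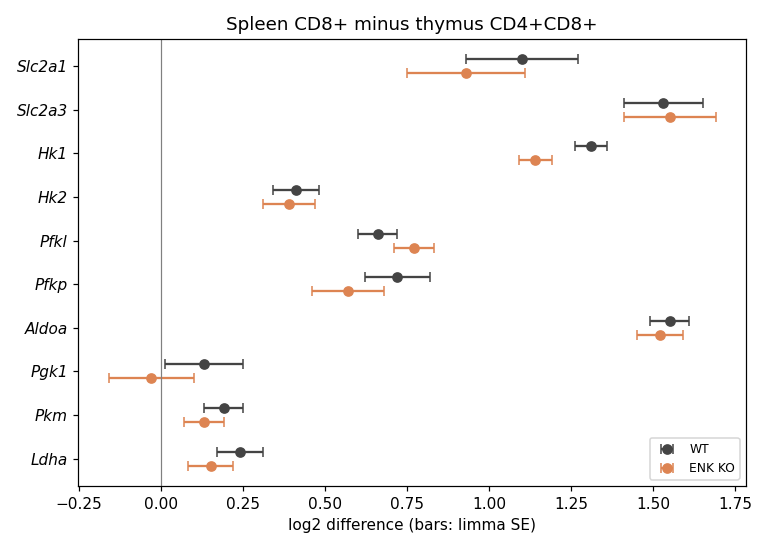
Log2 difference of spleen CD8+ minus thymus CD4+CD8+ cells for each gene, in WT and in ENK KO mice, with limma standard errors as bars and the chosen probe set of each gene. The Hk2 points rest on thymus values under the filter level. The points run from −0.03 for Pgk1 in ENK KO cells to 1.55 for Aldoa in WT and Slc2a3 in ENK KO cells.

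Other cell properties moved with the tissue. The mean log2 level of 9 measured genes of dividing cells was 8.50 to 9.38 on thymus arrays and 6.75 to 7.10 on spleen arrays, so the sorted thymus cells carried more of these transcripts. B cell genes were at 6.66 to 6.76 in the thymus and 6.78 to 7.91 in the spleen (6 genes), erythroid genes at 6.57 to 6.65 and 6.94 to 7.69 (4 genes), platelet genes at 6.43 to 6.51 and 7.03 to 7.65 (5 genes) and myeloid genes at 6.35 to 6.44 and 6.35 to 7.09 (9 genes). Not every gene of a list moved with its mean. In WT cells the B cell gene Cd79b had a mean of 9.80 in the thymus and 9.53 in the spleen. Blnk, also of the B cell list, had 6.56 and 6.57, and the myeloid gene Itgam 7.35 and 6.41. The platelet chemokine Ppbp was at 5.12 to 5.31 in the thymus and 6.49 to 8.46 in the spleen. The part of these differences in the results for the 10 genes was not tested.

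Whether paralogues shifted equally between the tissues was asked in 3 pairs, by the difference of their log2 values on each array and an exact two-sided permutation of tissue within genotype (735 arrangements, smallest possible p = 0.00136, adjusted over the 3 pairs). This measures unequal change, not which paralogue is more abundant. The probe set of Slc2a3 gained more signal than that of Slc2a1: the difference Slc2a1 minus Slc2a3 was 0.52 log2 units smaller in the spleen (spleen minus thymus −0.52, exact p = 0.00408, adjusted p = 0.00612; −0.54 and adjusted p = 0.00857 without replicate 28). The tissues overlapped in WT cells (0.85 to 1.41 in the thymus, 0.34 to 1.08 in the spleen). They did not overlap in ENK KO cells (1.14 to 1.27 and 0.30 to 0.77). The pair of Hk2 and Hk1 was computed for the adjustment, but its value says nothing of Hk2, whose thymus level is not resolved, and it also changed sign with the Hk1 probe set (−0.82 and 0.07). For Pfkp minus Pfkl the value was −0.07 (exact p = 0.416, adjusted p = 0.416; −0.03 without replicate 28), which was not distinguishable from equal change.

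The study's own comparison was ENK KO with WT within each tissue. In the thymus 0 of the 10 genes were called, and 0.0147% of all genes tested were (limma, adjusted p under 0.05). At an unadjusted p under 0.05, 1 gene was higher and 1 lower, against 1.80% and 1.73% of all genes. The higher one was the chosen Hk1 set (0.17 ± 0.06, adjusted p = 1), whose ENK KO values of 12.35 and 12.40 lay above the WT values of 12.12 to 12.28, as was so for 4.04% of all genes. The RefSeq-annotated Hk1 set gave −0.06 ± 0.09 instead. The lower one was Aldoa (−0.20 ± 0.08, adjusted p = 1), with both ENK KO arrays below all 3 WT arrays, as was so for 5.21% of all genes. The remaining 8 genes lay between −0.10 (Ldha) and 0.11 (Pkm, or 0.09 with its RefSeq-annotated set). The median of the 10 was −0.027, against 0 over all genes.

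In the spleen 0 of the 10 genes were called, with and without replicate 28, and 0.00733% of all genes tested were (0.0147% without it). At an unadjusted p under 0.05, 2 genes were lower and 0 higher, against 4.93% and 3.45% of all genes. The 2 were Aldoa and Ldha. Aldoa was lower in ENK KO cells by a log2 difference of −0.23 ± 0.06 (limma, adjusted p = 0.553), and its ENK KO values of 11.36 to 11.59 all lay below the WT values of 11.61 to 11.74. Groups separated in that direction for 0.814% of all genes. Without replicate 28 the Aldoa difference was again −0.23 ± 0.06 (adjusted p = 0.432). Ldha differed by −0.19 ± 0.06 (adjusted p = 0.595), with overlapping groups, and by −0.18 ± 0.06 without replicate 28 (adjusted p = 0.468). Neither passed the adjustment over all genes.

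Of the other genes in the spleen, Pfkp had −0.19 ± 0.09 (−0.11 ± 0.06 without replicate 28) and Pgk1 −0.16 ± 0.11 (−0.07 ± 0.08 without it), since replicate 28 held the lowest value of both. Slc2a1 had −0.13 ± 0.15, Hk2 −0.05 ± 0.06, Pkm 0.05 ± 0.05 and Pfkl 0.07 ± 0.05. The RefSeq-annotated sets gave −0.05 ± 0.07 for Hk1 and 0.01 ± 0.06 for Pkm. Without replicate 28 the differences were −0.13 for Slc2a1, 0.04 for Slc2a3, 0 for the chosen Hk1 set, −0.03 for Hk2, 0.08 for Pfkl and 0.02 for Pkm. Slc2a3 and the chosen Hk1 set had a difference of 0 at 2 decimals, with standard errors of 0.11 and 0.04. The median of the 10 was −0.091, against −0.01 over all genes. For the 9 genes above the filter level on every array the median was −0.13, and −0.07 without replicate 28.

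Some marker levels moved with genotype in the spleen as well. Platelet genes were at 7.37 to 7.59 in WT and at 7.03 to 7.20 in ENK KO cells without replicate 28, which had 7.65. Of the platelet genes, Ppbp was at 7.70 to 8.46 in WT and 6.49 to 7.26 in ENK KO cells. Without replicate 28 the genotypes overlapped for Itga2b (7.66 to 7.83 in WT, 7.69 to 7.90 in ENK KO cells). They also overlapped for Itgb3 (7.76 to 8.18 in WT, 7.75 to 7.93 in ENK KO cells) and Gp9, and Pf4 lay under the filter level. Replicate 28 had Itgb3 at 10.09. Erythroid genes were at 7.30 to 7.69 in WT and 6.94 to 7.42 in ENK KO cells. Their part in the Aldoa and Ldha differences was not tested.

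**Figure D4:**
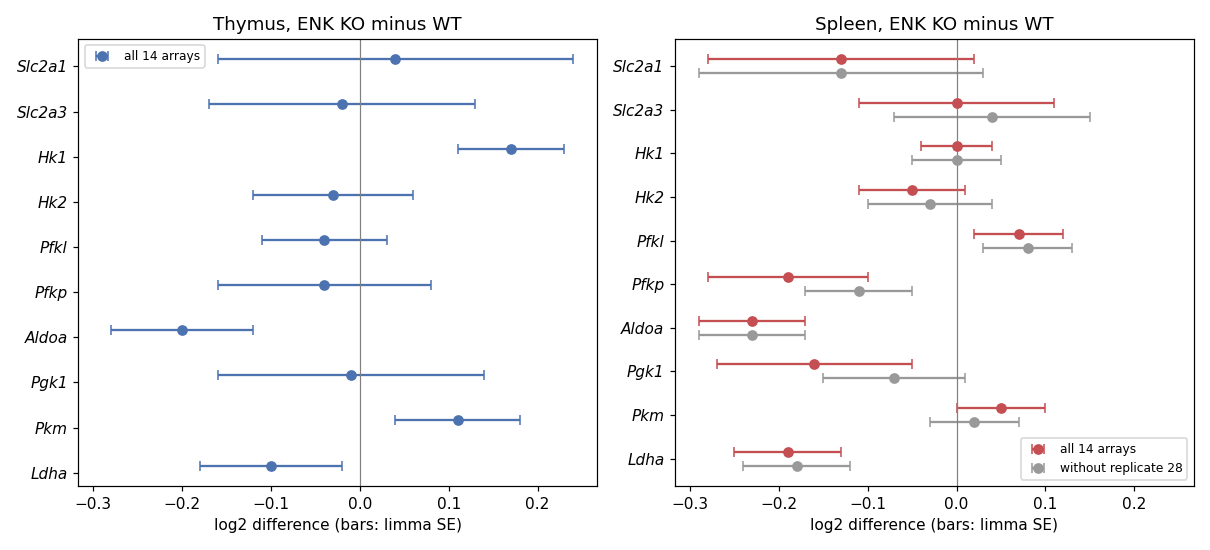
Log2 difference of ENK KO minus WT for each gene in thymus (left) and spleen (right), with limma standard errors as bars and, for the spleen, the values without replicate 28 in grey. Aldoa lies at −0.20 in the thymus and −0.23 in the spleen, and the Pfkp and Pgk1 differences shrink without replicate 28.

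The spleen effect minus the thymus effect of ENK KO was called for 0 of the 10 genes, against 0.00733% of all genes. The smallest unadjusted p was that of the chosen Hk1 set (−0.17 ± 0.07, adjusted p = 1.00), and the RefSeq-annotated set gave 0.01 ± 0.11. Pkm had −0.06 ± 0.09, or −0.08 ± 0.10 with its RefSeq-annotated set. At an unadjusted p under 0.05, 2.99% of all genes passed. Aldoa had −0.02 ± 0.09. None of the 10 genes was called without replicate 28 either, where the chosen Hk1 set had −0.17 ± 0.08 and Aldoa −0.03 ± 0.10. The 2 genotype comparisons use different arrays, whereas each shares its arrays with the tissue comparisons above.

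The other genes of glucose metabolism were taken from 8 lists of 108 genes, of which 98 were on the array with a single-symbol probe set and 86 were tested. In WT cells 23 were higher and 38 lower in the spleen, and 25 were not called, against 30.5% and 38.2% of all genes. Some of the called genes, named below, lay under the filter level on every array of a tissue. Such genes could enter the tests only by being higher in the other tissue. The median log2 difference of the 86 was −0.13. In ENK KO cells 20 were higher, 32 lower and 34 not called, against 27.4% and 37.1% of all genes. Without replicate 28, which left 85 tested, 22 were higher and 33 lower in ENK KO cells, against 27.9% and 37.3% of all genes. In WT cells 25 were then higher and 39 lower, against 31.3% and 38.8%.

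Of 6 other glucose transporters, 3 were higher and 1 lower in WT spleen, none by more than 0.19 log2 units in size. The increases were in Slc2a6 (0.17 ± 0.05), Slc2a4 (0.18 ± 0.06), the insulin-responsive transporter of muscle and fat, and Slc2a8 (0.14 ± 0.05). Of 11 other glycolytic enzymes, 4 were higher and 5 lower. The 4 include Aldoc and Pklr, whose thymus values (6.57 to 6.60 and 6.70) all lay under the filter level. Aldoc and Pklr could thus enter the tests only by being higher in the spleen. Ldhb, the lactate dehydrogenase subunit that favours the use of lactate, fell 13-fold: it was 11.21 to 11.42 in thymus WT and 7.39 to 8.04 in spleen WT (−3.70 ± 0.21, adjusted p = 5.48e-09), and −3.67 ± 0.23 in ENK KO cells (−3.80 ± 0.19 without replicate 28). In WT cells Ldha was thus higher by 0.24 log2 units in the spleen, while Ldhb fell by 3.70. Pfkm, the muscle phosphofructokinase subunit, was lower by −0.86 ± 0.07 while Pfkl and Pfkp were higher. Bpgm, which makes 2,3-bisphosphoglycerate, was lower (−0.96 ± 0.10) and the enolase Eno3 higher (0.48 ± 0.06). Pgam1, the phosphoglycerate mutase named here after its values were seen, was higher (0.61 ± 0.13).

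Transport of lactate and pyruvate had 0 higher and 3 lower of 4. These were Slc16a1 (−0.83 ± 0.22), the lactate carrier MCT1, Slc16a3 (−0.19 ± 0.06), the lactate exporter MCT4, and Mpc1 (−0.31 ± 0.10), a subunit of the mitochondrial pyruvate carrier. Enzymes that control flux had 1 higher and 7 lower of 12. Lower were the pyruvate dehydrogenase kinase Pdk2 (−0.76 ± 0.09), the pyruvate dehydrogenase subunit Pdha1 (−0.44 ± 0.07) and Pfkfb3 (−0.48 ± 0.07), whose product activates phosphofructokinase. Tigar, which opposes that activation, was the higher one (0.51 ± 0.08).

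Of 26 regulators, 6 were higher and 13 lower in WT spleen. Myc, an activator of glycolytic genes, lay between 8.16 and 8.40 in thymus WT and between 11.15 and 11.48 in spleen WT (3.02 ± 0.12, adjusted p = 2.74e-10; 2.85 ± 0.14 in ENK KO cells, or 2.93 ± 0.11 without replicate 28). Bcl6, a repressor of glycolytic genes in T cells, lay between 10.86 and 10.97 in thymus WT and between 8.04 and 8.18 in spleen WT (−2.79 ± 0.10, adjusted p = 6.70e-11; −2.71 ± 0.11 in ENK KO cells, or −2.78 ± 0.09 without replicate 28). Foxo1, a factor of resting T cells, was higher by 2.17 ± 0.10, and Mxi1, a MYC antagonist, was lower by −1.56 ± 0.07. Named after their values were seen, Hif1a was lower (−0.76 ± 0.09), Egln3, a prolyl hydroxylase that acts on HIF proteins, was lower (−1.73 ± 0.20) and Prkaa1, a catalytic subunit of the energy sensor AMPK, was higher (1.22 ± 0.08). Hypoxia response genes outside glycolysis had 0 higher and 7 lower of 11, among them Kdm3a (−0.94 ± 0.06), Ndrg1 (−0.72 ± 0.13) and Bnip3l (−0.40 ± 0.07). The 7 include Adm, at 6.87 in the thymus and 6.43 to 6.72 in the spleen. Every spleen value of Adm lay under the filter level, so it could enter the tests only by being higher in the thymus. Its difference is not given as a measured change.

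The pentose phosphate pathway had 1 higher and 1 lower of 6: Tkt, transketolase, was higher (0.59 ± 0.05) and the epimerase Rpe lower (−0.87 ± 0.07). Gluconeogenic and branch enzymes had 8 higher and 1 lower of 10. Among the 8, Fbp2 (6.57 to 6.62) and Pck1 (6.39 to 6.56) lay under the filter level on every thymus array. Fbp2 and Pck1 could thus enter the tests only by being higher in the spleen. G6pc3, the widely expressed glucose-6-phosphatase, rose 5.47-fold (2.45 ± 0.06, adjusted p = 2.21e-12; 2.24 ± 0.06 in ENK KO cells, or 2.22 ± 0.06 without replicate 28). Gpd1l (0.96 ± 0.11), Psat1 (0.64 ± 0.06), of serine synthesis, and Gpd1 (0.28 ± 0.04) were also higher.

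**Figure D5:**
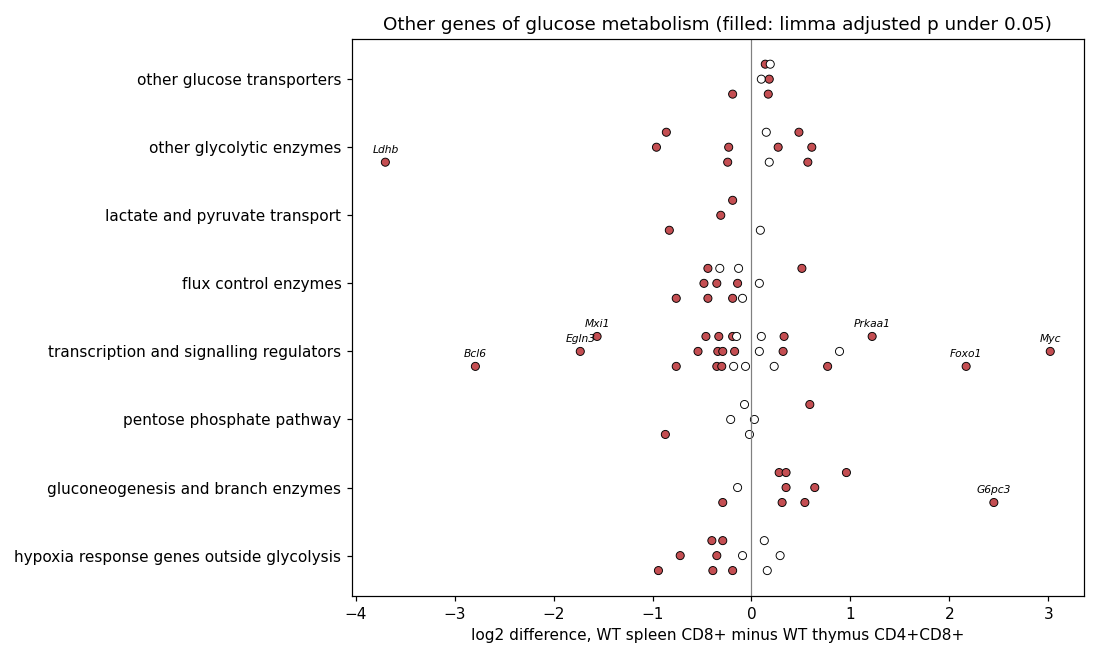
Log2 difference between spleen CD8+ and thymus CD4+CD8+ cells of WT mice (spleen minus thymus) for the 86 tested genes of the 8 lists, 1 point per gene, filled where the limma adjusted p was under 0.05. The points of Aldoc, Pklr, Fbp2, Pck1 and Adm rest on values under the filter level in thymus or spleen. Genes beyond about 1 log2 unit are named: Ldhb, Bcl6, Egln3 and Mxi1 lie to the left, and Prkaa1, Foxo1, G6pc3 and Myc to the right.

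Between genotypes 0 of the 86 genes were called in either tissue or for the difference between tissues. In the thymus 1 passed an unadjusted p under 0.05 (Psat1, 0.15, adjusted p = 1), where 1.80% of all genes were higher and 1.73% lower at that level. In the spleen 4 were higher and 6 lower at that level, all with an adjusted p of 0.595, against 3.45% and 4.93% of all genes. Without replicate 28 the spleen counts were 6 and 6 of 85, against 4.30% and 5.42% of all genes, and 0 were called after adjustment. With all arrays the smallest p in the spleen was that of Slc2a6 (−0.17), a lysosomal hexose transporter (−0.18 without replicate 28), with all ENK KO arrays below all WT arrays, as for 0.814% of all genes. Without replicate 28 the smallest p was that of Epas1 (limma, −0.31 ± 0.07, adjusted p = 0.432). Replicate 28 held the highest Epas1 value of its group, 8.30. Pfkfb2, whose product activates phosphofructokinase, had 0.12 (0.14 without replicate 28), with all ENK KO arrays above, as for 0.894% of all genes.

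Across the 14 arrays the 45 pairs of the 10 genes correlated at r = 0.05 to 0.98 (median 0.79). These points share the split between tissues. All correlations of Hk2, here and below, rest in part on thymus values under the filter level. After each group's mean was subtracted the range was −0.54 (Slc2a1 with Ldha) to 0.78 (Pfkp with Pgk1), with a median of 0.28. Among all tested genes, the values most like those of Slc2a1 over the 14 arrays were those of Plaur (r = 0.968), Mad2l2 (0.966) and Got1 (0.963), and those most like Slc2a3 were Bckdhb (0.992), Tyk2 (0.991) and Abcc1 (0.990). For Aldoa they were Hspbp1 (0.993), Cd200r4 and Myl6 (0.992 each). For the chosen Hk1 set they were Slc7a5 (0.997), Entpd6 (0.996) and Irf1 (0.995), for Hk2 Slc29a2 (0.986), Asap3 (0.980) and Hand2 (0.978), for Pfkl Klhl2 (0.992), Map3k3 and Bmper (0.991 each), for Pfkp 5430427O19Rik (0.988), Mcoln2 (0.983) and Cox5a (0.981), and for Pkm Abhd12 (0.914), Vps16 and Gar1 (0.912 each).

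The nearest genes to Pgk1 were Cct7 (r = 0.887), Uqcrh (0.865) and Man1a (0.806). Those nearest to Ldha were Slc4a1 (0.880), Tpi1 (0.879), the glycolytic triosephosphate isomerase, and Ccdc149 (0.863). Slc4a1 is the red cell anion exchanger and one of the erythroid markers: it was at 7.52 on all 5 thymus arrays, 7.94 to 8.40 in spleen WT and 7.60 to 8.16 in spleen ENK KO. Its part in the Ldha values was not tested.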

How the data were processed

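Sorted T cells were profiled on 14 single-channel Affymetrix arrays. The submitters' processing notes name RMA as the authors' method for the deposited log2 values, 1 per probe set and array. This method corrects background, normalizes arrays by quantiles and summarises probes, which evens array-wide shifts. Software, version and genome build are not given in the sources used, nor is whether the 14 arrays were processed jointly. Depth does not apply to arrays, and the number of arrays limits the precision.

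Of 28213 probe sets, the platform annotation names 1 symbol for 21640, several for 1321 and none for 5252. Only those with 1 symbol were used. A RefSeq gene table (GRCm38.p6) found 21553 of these by gene ID. For each of the 19937 symbols the set with the highest mean was kept. No gene coordinates are given for probe sets.

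A linear model with a mean per group was fitted to 14 arrays in limma 3.58.1 under R 4.3.3 (eBayes with a trend), with Benjamini-Hochberg adjustment over 13641 genes. Spread was estimated over all groups jointly, since thymus ENK KO has 2 arrays. The fit was tested on simulated data. Named genes are the 10 genes, up to 4 genes per list and comparison with the smallest p, 3 nearest genes for each of the 10, and markers; other names are said to be chosen after their values were seen. The 10 genes and the lists were chosen with earlier results of these data known. The alternatives were other filters, scalings, probe sets, weights, covariates and subsets, and leaving out each array; the use of RefSeq-annotated sets was added after the data were seen.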

Additional observations from a re-analysis of the deposited data

Results flagged for a closer look

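In 24 groups of 4 or 5 arrays of the 10 genes' probe sets, 1 array stood apart from the others by Dixon's criterion at 95%, which chance alone passes in about 1 in 20 groups. It was Pfkl in spleen ENK KO replicate 31, at 8.75, where the other 4 arrays of the group had 8.61 to 8.64. The gap made up 0.786 of the group's range, against a critical value of 0.71.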

How the results depend on the processing

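No paired analysis was possible because no replicate number occurs in more than 1 group. Of 1464 values of the 10 genes under the alternatives, 1421 were counted as the same, 38 as reversed, 3 fell below the threshold and 2 passed it. Values were compared at 2 decimals, so a value of 0 never counted as reversed. In the spleen genotype comparison the main values of Slc2a3 and Hk1 were 0. Their alternatives ran from −0.08 to 0.10 for Slc2a3 and from −0.05 to 0.03 for Hk1, and all were counted as the same. No genotype or interaction call was made for the 10 genes or the 86 pathway genes under any alternative run with adjusted p as the criterion, and all values counted as reversed were at most 0.10 in size. Leaving out the only other thymus ENK KO array assumes that the remaining 1 varies like the other groups. The count of the 10 genes, Hk2 included, called between tissues was 8 to 9 in WT and 7 to 7 in ENK KO cells when single arrays were left out, and 6 and 5 with an unadjusted p under 0.05 and a fold of at least 1.5. The pathway counts of 61 in WT and 52 in ENK KO cells at an adjusted p under 0.05 ranged from 58 to 64 and from 40 to 55 when single arrays were left out, and were 21 and 18 with that unadjusted criterion. Over all genes the thymus genotype count of 2 ranged from 0 to 42, the spleen count of 1 from 0 to 27 and the interaction count of 1 from 0 to 40; WT and ENK KO tissue counts ranged from 3756 to 12840 and from 3540 to 11968. A filter at the 60th percentile left Hk2 untested.

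Among arrays labelled male, the paralogue differences were −0.58 for Slc2a1 minus Slc2a3 (adjusted p = 0.1125) and −0.84 for Hk2 minus Hk1 (adjusted p = 0.075). These arrays allow 40 arrangements and no exact p below 0.025, so a single pair at that limit has an adjusted p of 0.075 and the test says nothing about stability. The RefSeq-annotated Hk1 set gave 0.07 over all arrays. In WT cells Ldha was not called under quantile normalization (0.14), and Pkm was not called with the mean of its probe sets (0.09) or without thymus WT replicate 32 (0.14, adjusted p = 0.0620).

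Values that reversed were as follows. Between tissues, Pgk1 in ENK KO cells was 0.04 under quantile normalization, 0.02 under array weights and 0.06 without arrays 28 or 28 and 22 (−0.08 to 0.06 with single arrays left out), and the RefSeq-annotated Pkm set gave −0.01 in WT and −0.09 in ENK KO cells. For thymus genotype, Slc2a3 was 0.04 under array weights, 0.07 with age as covariate and 0.10 in males, Pgk1 was 0.06 under array weights and 0.07 in males, Pfkp was 0.02 in males, and the RefSeq-annotated Hk1 set was −0.06. With single arrays left out, the thymus ranges were −0.10 to 0.15 for Slc2a1, −0.13 to 0.07 for Slc2a3, −0.08 to 0.03 for Pfkp and −0.11 to 0.09 for Pgk1. For the interaction, Hk2 was 0.01 under quantile normalization, median centring and array weights (−0.06 to 0.03 with single arrays left out), Aldoa was 0.01 under median centring and 0.07 without 2-month-old animals or in males (−0.08 to 0.03), Slc2a3 was −0.01 under array weights and −0.02 in males (−0.08 to 0.13), and the RefSeq-annotated Hk1 set was 0.01. The alternatives without 2-month-old animals and in males use the same ENK KO arrays. Causes were not tested beyond the changes of arrays and probe sets named.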
